A study of Mus musculus with 12 samples.

Results

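The genes described here are 31 interferon stimulated genes of the type I interferon response, chosen as a named list and found by symbol in both deposited count tables. They are 31 of the 23284 genes in those tables, and all 31 had enough counts to be tested in every comparison. Poly(A) RNA was sequenced from the spleen and the axillary lymph node of mice deficient in both apoE and apoA-I (DKO) and of DKO mice that overexpress human apoA-I (DKO/hA-I). At 30 weeks of age all animals were on normal laboratory diet, so the apoE deficiency and the lack of mouse apoA-I were shared by every group. Each tissue had 3 libraries per genotype, 12 in all, and no animal code occurs in more than 1 tissue. The labels name no promoter for the human transgene. The study's title links the lack of apoA-I to inflammation, and the comparisons ask whether the interferon stimulated genes differed between the genotypes in each tissue and between the tissues.

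Type I interferons are cytokines that nearly every cell can make when sensors in the cytoplasm or in endosomes meet foreign or misplaced nucleic acid. They bind the receptor chains IFNAR1 and IFNAR2, and the kinases JAK1 and TYK2 then phosphorylate STAT2, which joins IRF9 in the transcription factor complex ISGF3. ISGF3 binds the interferon stimulated response element, an A-rich motif, in the promoters of genes that block viral entry, translation and replication. In spleen and lymph node, plasmacytoid dendritic cells are a known source of these cytokines, while most resident cells can respond to them.

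The promoters show the letters that this family shares. The RefSeq table (GRCm38.p6) held windows of 250 bases before to 50 bases after the start for 21 of the 31 genes. The core of the response element, GAAANNGAAA (TTTCNNTTTC on the other strand), was searched on both strands. It was found in 11 of these 21 genes (52.38%), against 3.99% of all 27025 genes with a window of the same length. In 8 of the 11 a match lay before the start, and in the sensors Ddx58 and Ifih1 and the kinase gene Eif2ak2 the match lay only after it. A second motif, TTCNNNGAA, the core of the gamma-activated site, which reads the same on both strands, was found in 5 of the 21 genes (23.8%) against 9.55% of all genes. In 1 gene, Bst2, it overlapped a response element match. Usp18, Dhx58, Zbp1, Ifi204, Oas2, Mx1, Mx2, Ifi27l2a, Rtp4 and Parp14 had no window. A match describes letters only and says nothing of binding in these mice.

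The sequences below are the stretches before the start of the most abundant gene with a match there in each of 5 role groups. Rsad2 was added after its values were seen, as 1 of the 3 genes called by genotype in spleen once spleen DKO replicate 1 was left out. They run 5′ to 3′ on the gene's strand, with the matches in capitals. Stat2 lies at chr10:128270248-128270497 (plus), Isg15 at chr4:156200819-156201018 (minus), Oas3 at chr5:120777660-120777859 (minus), Ifit3 at chr19:34583329-34583528 (plus), Bst2 at chr8:71537473-71537672 (minus) and Rsad2 at chr12:26456453-26456652 (minus). The match nearest the start began 66 bases before it in Isg15, 75 in Oas3, 120 in Rsad2, 122 in Ifit3, 124 in Bst2 and 222 in Stat2. Isg15 had 3 overlapping matches in a run, Bst2 had 2 that overlap and Ifit3 had 2 that stand apart, while the other sequences held 1.
Stat2: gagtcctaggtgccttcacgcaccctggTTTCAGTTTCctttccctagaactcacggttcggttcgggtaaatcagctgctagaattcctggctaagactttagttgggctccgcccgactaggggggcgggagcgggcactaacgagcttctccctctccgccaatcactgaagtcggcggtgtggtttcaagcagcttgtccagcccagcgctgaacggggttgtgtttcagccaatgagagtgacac
Isg15: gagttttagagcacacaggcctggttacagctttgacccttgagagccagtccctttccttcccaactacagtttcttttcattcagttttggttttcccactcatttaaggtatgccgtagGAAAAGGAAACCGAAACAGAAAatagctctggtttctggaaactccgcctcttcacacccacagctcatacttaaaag
Oas3: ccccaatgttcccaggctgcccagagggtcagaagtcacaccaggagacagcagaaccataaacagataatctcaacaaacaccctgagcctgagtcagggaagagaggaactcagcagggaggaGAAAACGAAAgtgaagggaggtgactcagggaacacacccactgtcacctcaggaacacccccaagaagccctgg
Ifit3: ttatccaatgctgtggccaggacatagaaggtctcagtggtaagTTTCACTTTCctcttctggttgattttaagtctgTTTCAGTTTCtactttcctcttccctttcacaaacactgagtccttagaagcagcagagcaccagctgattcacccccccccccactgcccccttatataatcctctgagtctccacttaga
Rsad2: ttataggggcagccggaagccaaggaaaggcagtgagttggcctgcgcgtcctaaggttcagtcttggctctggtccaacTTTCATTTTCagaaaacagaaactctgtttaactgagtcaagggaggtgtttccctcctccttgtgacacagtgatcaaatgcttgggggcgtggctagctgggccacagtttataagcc
Bst2: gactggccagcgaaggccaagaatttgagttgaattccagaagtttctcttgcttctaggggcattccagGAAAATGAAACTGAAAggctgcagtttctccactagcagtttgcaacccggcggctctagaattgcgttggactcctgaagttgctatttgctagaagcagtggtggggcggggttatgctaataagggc

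Several facts of the series bear on every result here. Library totals ran from 5911835 to 11950825 counts, and levels are given as CPM, the count scaled to library size (TMM over the 12 libraries). A CPM is followed by its SD (n = 3 libraries per group) and a log2 fold change by its standard error. The labels describe the animals by a code only, and p-values cover no more than the spread among these libraries. Apoa1 had 0 to 13 counts per library and Apoe 51 to 202. Mouse Apoa1 and Apoe are targeted in both genotypes, so they do not check the labels. The pseudogene Rpl31-ps12 summed to 2094 counts in nodes labelled DKO and 3 in nodes labelled DKO/hA-I, but to 5 in spleens labelled DKO and 2162 in spleens labelled DKO/hA-I. Its direction therefore turned between the tissues, which the labels do not account for. Groups are named below as labelled, and a genotype direction would turn in a tissue whose labels were exchanged, while the comparison of the tissues over both genotypes would not. In bulk RNA, fewer cells of a type and less RNA per cell cannot be told apart.

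The members stood higher in lymph node than in spleen, and the spread among the nodes was the other main feature. Over both genotypes, 25 of the 31 genes were lower in spleen in edgeR's quasi-likelihood test (Benjamini-Hochberg adjusted p under 0.05), against 17.5% of all 14608 genes tested. Only Rsad2 was called higher in spleen, against 17.9% of all genes. The median log2 fold change of the 31 genes, spleen minus lymph node, was -0.90, beside -0.02 for all genes tested, and 15 of the 26 called genes differed at least 2-fold. Cmpk2, Ifih1, Irf9, Isg15 and Oas3 did not pass. No overlap between the 6 spleen and the 6 node libraries was left for 6 genes, all lower in spleen, against 6.45% of all genes. The tissues come from different animals and separate tables, so tissue and any batch between them cannot be told apart. Erythroid markers summed to 12581 to 58207 CPM in spleens and 44.1 to 592 CPM in nodes, and their part in the result was not tested. Sums of 9 lipid-laden macrophage markers (1035 to 8438 CPM in nodes, 357 to 467 in spleens) and of 8 fibroblastic stroma markers (1201 to 3124 CPM in nodes, 680 to 872 in spleens) were higher in every node. So were sums of 10 adipocyte markers (108 to 2476 CPM in nodes, 39.1 to 56.1 in spleens). Fabp4 is in both the adipocyte and the lipid-laden macrophage list, so these sums are not separate. T cell markers summed to 735 to 1641 CPM in nodes and 545 to 774 CPM in spleens. The part of these markers was not tested either. Plasmacytoid dendritic cell markers summed to 692 to 820 CPM in spleens and 562 to 824 CPM in nodes.

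**Figure D1:**
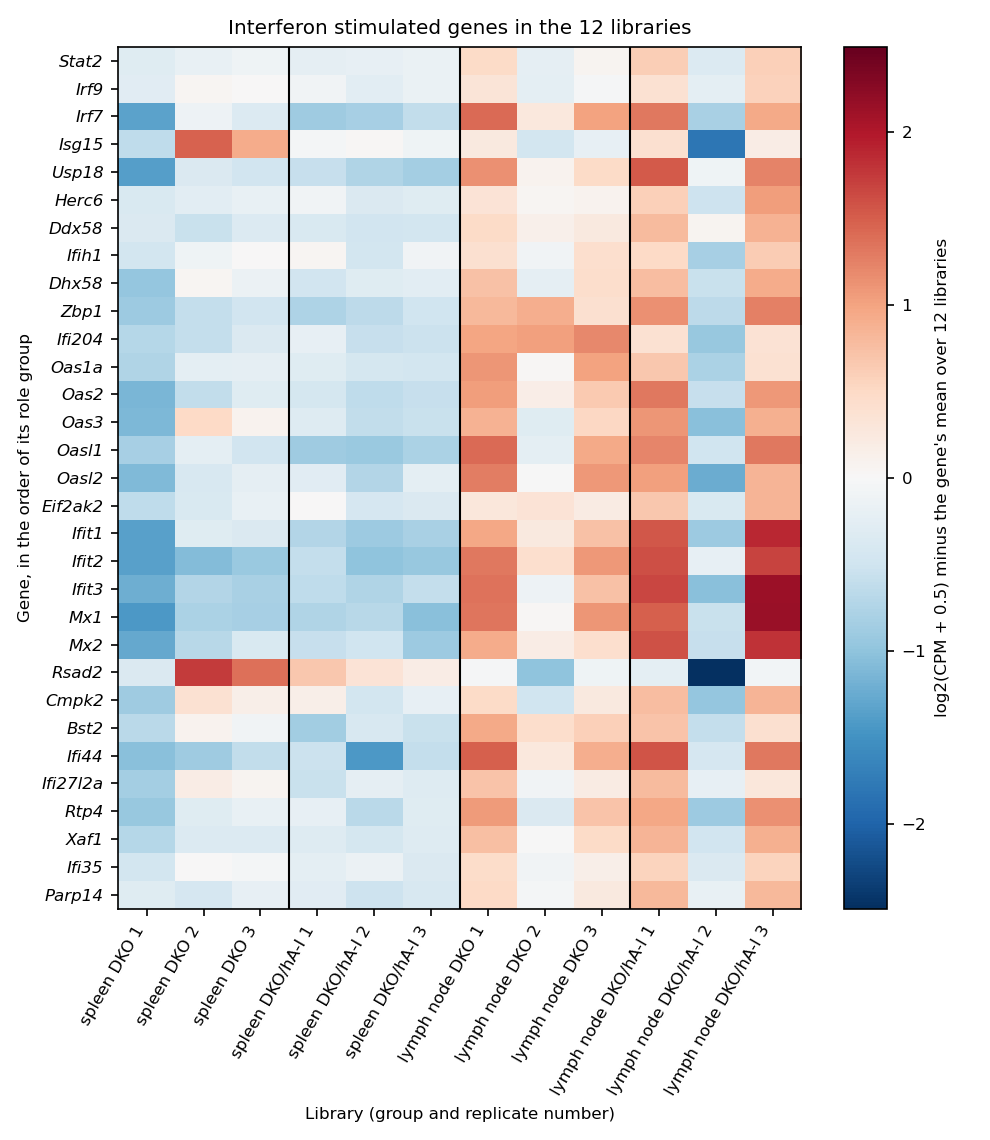
Heat map of log2(CPM + 0.5) minus the gene's mean over the 12 libraries, with 31 genes in rows by role and libraries in columns, vertical lines dividing the 4 groups. Red cells (above the gene's mean) fill most node columns, except lymph node DKO/hA-I replicate 2, while spleen DKO replicate 1 is the bluest spleen column for 26 of 31 genes and Isg15 and Rsad2 are red in spleen DKO replicates 2 and 3.

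Of the transcription factors of the response, 2 of 3 were lower in spleen. Irf7, which amplifies interferon production and is itself induced, is on chromosome 7 (141262706 to 141266481). Its level was 581, 260 and 437 CPM in the 3 DKO nodes and 540.0, 124 and 422 CPM in the 3 DKO/hA-I nodes. In spleen it was 86.6, 200.2 and 172 CPM in DKO and 117, 122 and 142 CPM in DKO/hA-I. Only the lowest node, DKO/hA-I replicate 2, fell inside the spleen range. The log2 fold change, spleen minus node, was -1.49 ± 0.32 (edgeR adjusted p = 0.00267). Stat2, the signal transducer particular to type I and III interferon, differed less, at 173 ± 11.7 CPM in DKO spleens and 217 ± 54.5 CPM in DKO nodes (log2 fold change over both genotypes -0.44, adjusted p = 0.0482). Its call was lost in 12 of the 18 other settings tried, with an adjusted p of up to 0.135. Irf9, its DNA-binding partner in ISGF3, did not pass (-0.27, adjusted p = 0.146).

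The IFIT genes, which lie side by side on chromosome 19 and encode proteins that bind viral RNA and hold back its translation, showed the widest gap. Ifit2 stood at 212, 113 and 180.5 CPM in DKO nodes and 259, 73.2 and 271 CPM in DKO/hA-I nodes. In spleen it stood at 32.9, 39.8 and 44.2 CPM in DKO and 55.7, 42.0 and 43.7 CPM in DKO/hA-I. All 6 nodes lay above all 6 spleens, and the log2 fold change was -2.10 ± 0.28 (adjusted p = 6.19e-05). Ifit3 (chromosome 19, 34583531 to 34588731) followed at -1.88 ± 0.40 and Ifit1 at -1.70 ± 0.36. Ifit3 had the widest range within a group, at 289, 43.7 and 396 CPM in DKO/hA-I nodes, and its lowest node fell below 5 of the 6 spleens, which ran from 38.9 to 60.2 CPM. Reads of Ifit3 and its near copy Ifit3b may have been divided in a way that the tables do not show.

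The Mx GTPases, dynamin-like proteins that trap viral nucleocapsids, lie together on chromosome 16. Mx1 stood at 130 ± 53.9 CPM in DKO nodes, 182 ± 130 in DKO/hA-I nodes, 34.5 ± 8.00 in DKO spleens and 38.6 ± 4.95 in DKO/hA-I spleens (log2 fold change -2.08 ± 0.36, adjusted p = 0.000605). Mx2 was the scarcer of the pair, at 9.36 ± 2.92 CPM in DKO spleens and 23.4 ± 6.49 in DKO nodes (-1.64). Bst2, tetherin, which holds budding virions at the cell surface, differed by -0.87 ± 0.20.

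Rsad2 departed from its neighbours in function, and Cmpk2 did not share its direction. Rsad2 encodes viperin, an enzyme that makes a chain-terminating nucleotide from CTP, and Cmpk2 encodes the mitochondrial nucleotide kinase beside it on chromosome 12. Rsad2 (26442746 to 26456452) stood at 86.2, 374 and 288 CPM in DKO spleens and 177, 141 and 127 CPM in DKO/hA-I spleens. In the nodes it stood at 110, 55.7 and 104 CPM in DKO and 93.9, 19.4 and 107 CPM in DKO/hA-I. Every spleen but DKO replicate 1 was above every node. The log2 fold change was 1.24 ± 0.39 (adjusted p = 0.0260), and adjusted p ran from 0.000514 to 0.111 over the 18 other settings tried, 7 of which lost the call. Cmpk2 differed by -0.37 ± 0.30 and did not pass.

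The ubiquitin-like ISG15 system was divided. Isg15 (chromosome 4, 156199424 to 156200818), the modifier that is conjugated to proteins after interferon, did not pass (0.52 ± 0.36, adjusted p = 0.296). Usp18, the protease that removes ISG15 and also damps the receptor, was lower in spleen by -1.55 ± 0.27 on the log2 scale (adjusted p = 0.000633), with 31.4 ± 2.98 CPM in DKO/hA-I spleens and 107 ± 53.1 in DKO/hA-I nodes. Herc6, the ligase that attaches ISG15 in mice, differed by -0.60 ± 0.19 (adjusted p = 0.0292), a call lost in 9 of the 18 other settings.

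Of the 6 genes of the OAS family and PKR, 5 were lower in spleen and Oas3 did not pass (-0.77, adjusted p = 0.0985). Those OAS proteins that are active enzymes make the second messenger that switches on RNase L. Eif2ak2 encodes PKR, the kinase that stops translation on double-stranded RNA. The differences were -1.57 ± 0.31 for Oasl1, -1.34 ± 0.27 for Oas2, -1.16 ± 0.33 for Oasl2, -0.90 ± 0.23 for Oas1a and -0.69 ± 0.18 for Eif2ak2. Oas1a has close copies beside it on chromosome 5, and the division of reads among them cannot be checked. Of the 5 nucleic acid sensors, 4 were lower in spleen. Zbp1, which senses Z-form nucleic acid, differed by -1.40 ± 0.25, and Ifi204, a DNA-binding protein of the IFI200 family, by -1.05 ± 0.19. Ddx58 (RIG-I) differed by -0.87 ± 0.12 and Dhx58 (LGP2) by -0.77 ± 0.25, while Ifih1 (MDA5) did not pass (-0.42, adjusted p = 0.150). The call of Dhx58 was lost in 10 of the 18 other settings (adjusted p up to 0.0770). RIG-I and MDA5 detect viral RNA, and LGP2 regulates them.

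All 6 remaining members were lower in spleen. Ifi44, first described as a protein of microtubular aggregates, stood at 71.0, 30.0 and 47.3 CPM in DKO nodes and 75.7, 18.5 and 62.9 in DKO/hA-I nodes. In spleen it stood at 11.9, 13.4 and 16.1 CPM in DKO and 17.2, 8.94 and 16.5 in DKO/hA-I, below every node (-1.86 ± 0.32). Rtp4 (-1.03), Xaf1 (-0.91), Parp14 (-0.75), Ifi27l2a (-0.58) and Ifi35 (-0.45) differed less. Over the 18 other settings the call was lost in 8 for Rtp4, 11 for Ifi27l2a and 11 for Ifi35. Rtp4 encodes a chaperone of membrane receptors, Xaf1 a partner of the apoptosis inhibitor XIAP, and Parp14 an ADP-ribosyltransferase.

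**Figure D2:**
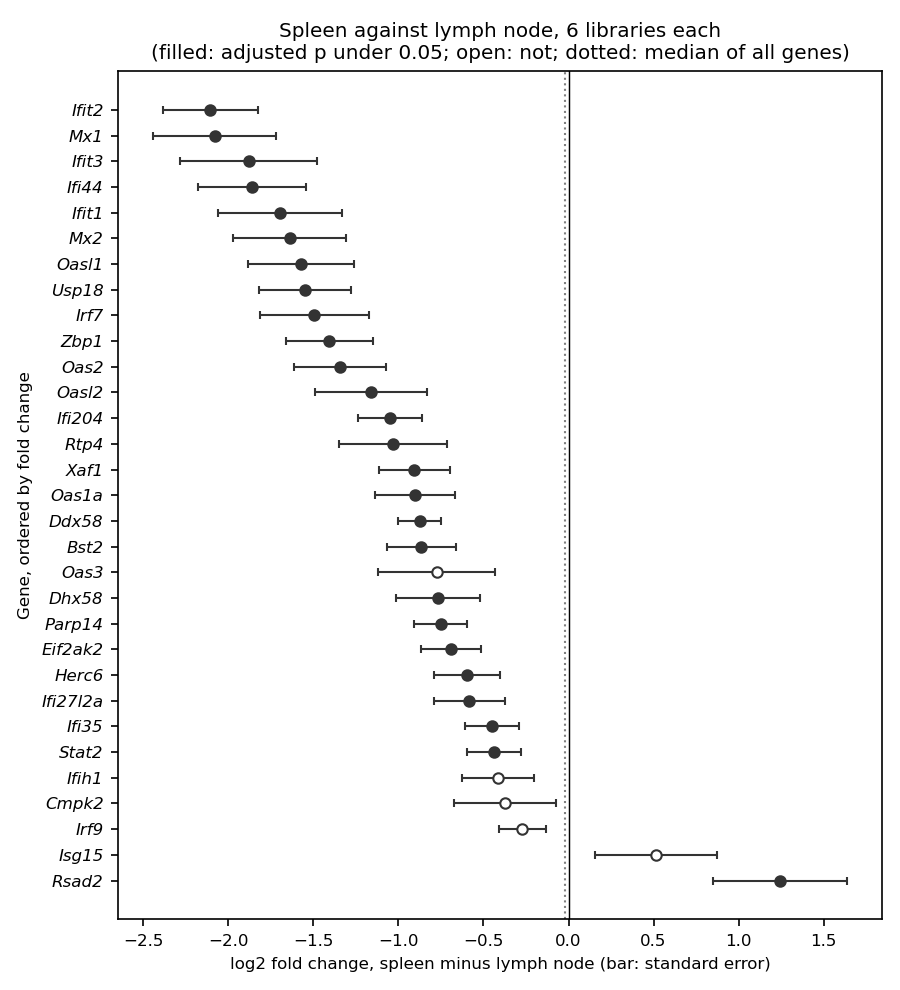
Log2 fold change of the 31 genes, spleen minus lymph node over both genotypes, with standard errors (6 libraries per tissue), filled where the adjusted p was under 0.05. Ifit2 and Mx1 lie farthest left at -2.10 and -2.08, Rsad2 stands alone among called genes to the right of 0 at 1.24, and the dotted line marks the median of all genes at -0.02.

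The difference between the tissues was followed over other settings. Without lymph node DKO/hA-I replicate 2, 28 genes were called lower in spleen, against 16.3% of all genes. That node was the lowest for all 31 members, so leaving it out raises the node mean of each. This fit therefore cannot show whether the difference hangs on 1 library. Without spleen DKO replicate 1, the lowest spleen for 26 of the 31 genes, 18 were called lower, against 16.5% of all genes. The count called in either direction ran from 18 to 30 over the 18 other settings, 18 of the 26 genes passed in each of them and 0 of the 26 changed sign. Within DKO, 15 genes were called lower in spleen (11.3% of all genes) and the libraries of the tissues did not overlap for 20 genes (16.4%). Without spleen DKO replicate 1 only 3 were called lower (10.2%), and leaving out each other DKO library gave 3 to 13 calls, where 16.2% to 29.8% of all genes were called in either direction. Within DKO/hA-I, 16 were called lower (11.8%) and 8 were lower without overlap (21.7%). Without lymph node DKO/hA-I replicate 2, 28 were called lower (10% of all genes), and leaving out another library of that genotype gave 10 or 11, where 19.5% to 21.3% of all genes were called in either direction.

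Per kilobase of exon, Ifi27l2a and Bst2 led in all 4 groups. Ifi27l2a, a small hydrophobic protein, stood at 286 ± 98.1 CPM per kilobase in DKO spleens, 243 ± 29.2 in DKO/hA-I spleens, 391 ± 113 in DKO nodes and 398 ± 136 CPM per kilobase in DKO/hA-I nodes. Bst2 followed at 150 ± 38.8, 113 ± 17.9, 273 ± 49.8 and 207 ± 85.9 CPM per kilobase. In DKO/hA-I spleens the next levels per kilobase were Isg15 at 69.2 ± 3.36, Rsad2 at 34.2 ± 5.95 and Irf7 at 33.7 ± 3.51. The last pair differed by less than their SDs. Ifi44 and Mx2 were lowest in both spleen groups, at 2.32 ± 0.75 and 2.76 ± 0.42 CPM per kilobase in DKO/hA-I spleens, again within their SDs of each other. In the nodes Irf7 and Ifit3 took the places that Isg15 and Rsad2 held in spleen, with 113 ± 42.6 and 88.6 ± 42.7 CPM per kilobase in DKO nodes.

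Among the spleens, no member passed the test of genotype, and the values turned on the library spleen DKO replicate 1. With all 6 spleens, 0 of 31 genes were called between the groups labelled DKO and DKO/hA-I in edgeR, against 0.00714% of all 14009 genes tested. The smallest adjusted p was 0.929, 1 gene had an unadjusted p under 0.05, and limma voom and DESeq2 also called 0. The median log2 fold change, DKO minus DKO/hA-I, was 0.02 beside 0.01 for all genes, with 17 genes above 0 and 14 below. For 0 of 31 genes did the groups fail to overlap, against 10.6% of all genes.

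Isg15 shows the pattern most plainly. It stood at 34.6, 149.6 and 103 CPM in the spleens labelled DKO replicates 1, 2 and 3. The DKO/hA-I spleens stood at 52.3, 54.9 and 49.8 CPM. DKO replicate 1 was thus the lowest of the 6 spleens and the other DKO spleens were the highest (log2 fold change 0.86 ± 0.47, adjusted p = 0.929). Rsad2 had the same order, with 86.2 CPM below the DKO/hA-I range of 127 to 177 and 288 and 374 CPM above it (0.74 ± 0.48). Oas3 did too, with 46.3, 143 and 107 CPM in DKO and 81.2, 66.2 and 68.9 CPM in DKO/hA-I (0.44 ± 0.37).

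**Figure D3:**
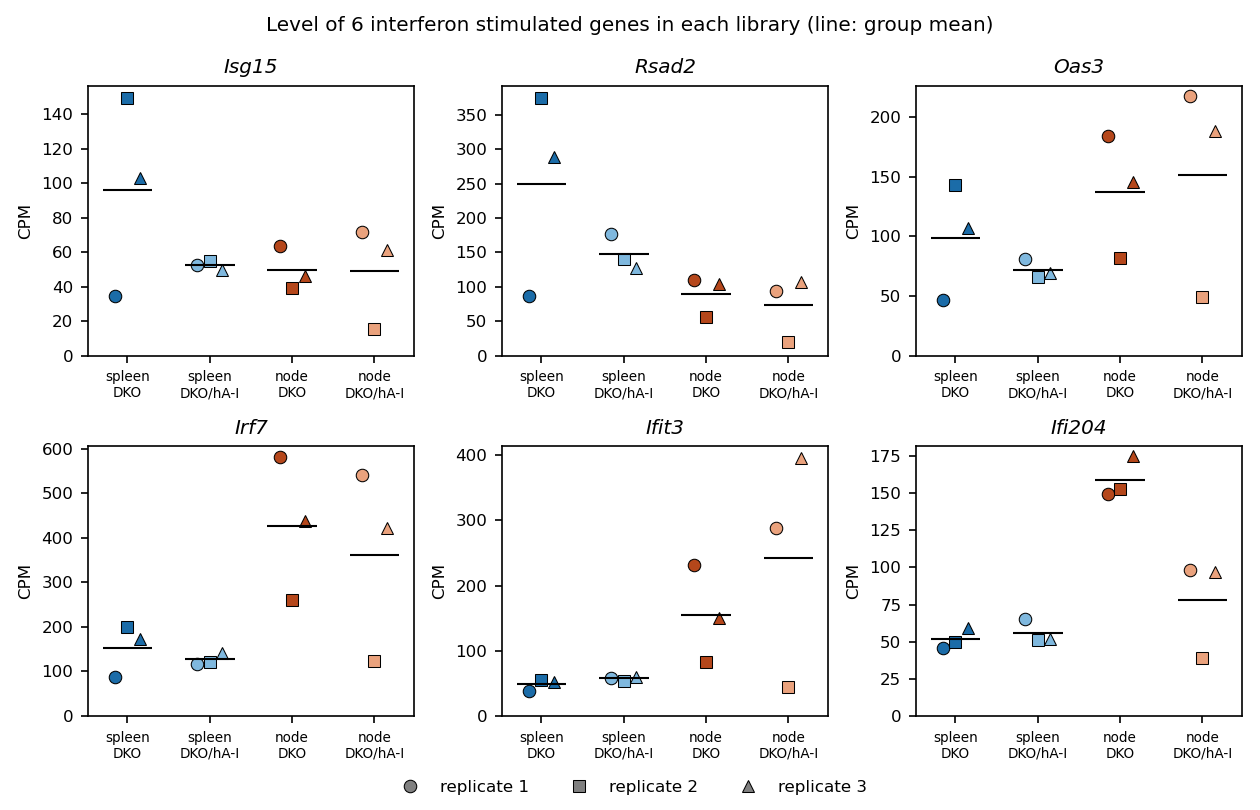
CPM of 6 genes in each library by group (circle, square and triangle: replicates 1, 2 and 3; line: group mean; each panel has its own axis from 0). In the Isg15, Rsad2 and Oas3 panels spleen DKO replicate 1 lies below and replicates 2 and 3 above the DKO/hA-I spleens, in all panels the node DKO/hA-I square is lowest of the nodes, and in the Ifi204 panel the DKO nodes at 149 to 175 CPM lie above the DKO/hA-I nodes.

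The low position of spleen DKO replicate 1 ran through most of the family. It was the lowest of the 6 spleens for 26 of 31 genes (20.4% of all genes tested) and the lowest of the 3 DKO spleens for 29 (39.9%). Ddx58 and Parp14 were the exceptions within DKO. The mean of the other DKO spleens was 1.43 times its level for the median gene, from 0.94 times for Ddx58 to 3.84 times for Rsad2. DKO replicates 2 and 3 were the highest of the 6 spleens for 13 and 9 genes, against 27.8% and 7.45% of all genes. Among the DKO/hA-I spleens the median range was 1.21-fold over the members and 1.22-fold over all genes, so their closeness was not particular to the members. In that group 0 members spanned more than 2-fold (2.63% of all genes), while 9 did among the DKO spleens (6.21% of all genes).

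Without spleen DKO replicate 1, 3 genes were called higher in the spleens labelled DKO, against 1.06% of all 14163 genes tested in that direction. The fit is singled out because the members stood low in that library. Leaving it out raises the DKO mean of most members by choice, so the p-values below are not a test of genotype. Isg15 differed by 1.25 ± 0.15 (edgeR adjusted p = 0.00655), with a mean of 126 CPM over the 2 DKO spleens left. Rsad2 differed by 1.14 ± 0.15 (adjusted p = 0.00662) and Oas3 by 0.77 ± 0.14 (adjusted p = 0.0234). The median of the 31 genes was then 0.11, with 25 above 0. With the middle number of the animal code as a block, 7 genes were called higher (2.53% of all genes). They were Isg15, Rsad2, Oas3, Irf7, Bst2, Ifi27l2a and Oasl1, at log2 fold changes of 1.28, 1.14, 0.78, 0.57, 0.64, 0.52 and 0.52. The number 56 is carried by spleen DKO replicate 1 alone, so this block also sets that library aside. Leaving out any of the other 5 spleens gave 0 calls. The library held 8966001 counts and had the lowest sum of 11 erythroid markers, 12581 CPM against 18533 to 58207 in the other spleens, and the highest T cell marker sum, 774 CPM against 545 to 671. Its plasmacytoid dendritic cell markers summed to 815 CPM, within the 692 to 820 of the others. Their part in the result was not tested.

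In the authors' deposited table for spleen, 0 of the 31 genes had a q-value under 0.05, against 0.0344% of all genes. The smallest q among them was 0.245, held by Isg15 and Rsad2 alike in the authors' deposited table.

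In the lymph node, the genotypes were not told apart by these genes in edgeR, and 1 node stood below all others for the whole family. Of 31 genes 0 were called, against 6.87% of all 14012 genes tested. The median log2 fold change, DKO minus DKO/hA-I, was -0.12 beside 0.01 for all genes, with 9 genes above 0 and 22 below, and 1 had an unadjusted p under 0.05. The groups did not overlap for 1 gene, Ifi204, against 30.5% of all genes.

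Ifi204 (chromosome 1, 173747293 to 173766943) stood at 149, 153 and 175 CPM in the nodes labelled DKO and 97.9, 39.0 and 96.9 CPM in those labelled DKO/hA-I. Every DKO node was above every DKO/hA-I node, and the log2 fold change was 1.04 ± 0.32 (edgeR adjusted p = 0.0954). Over the 13 other settings adjusted p ran from 0.0182 to 0.239. DESeq2 called it, as the only member, among 8.49% of all genes higher in DKO, and so did edgeR with all 12 libraries in a single fit (9.05% of all genes higher). In the authors' deposited table it was the only member with a q-value under 0.05 (q = 0.00771), against 3.37% of all genes. In spleen its levels were 45.8, 49.9 and 58.9 CPM in DKO and 65.6, 51.0 and 51.9 CPM in DKO/hA-I, which overlap (-0.13 ± 0.14). The difference between the tissues in this contrast, 1.15 ± 0.38, did not pass (adjusted p = 0.124). Reads from other genes of the IFI200 family could not be told apart from its own in the tables.

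Lymph node DKO/hA-I replicate 2 was the lowest of the 6 nodes for 31 of 31 genes. It was the lowest of the 6 for 15.1% of all genes tested. Compared with the mean of the other DKO/hA-I nodes, the median gene was 3.44-fold lower there, from 1.65-fold for Irf9 to 7.85-fold for Ifit3, and 25 of 31 genes were more than 2-fold lower. Isg15 stood at 71.5, 15.2 and 61.2 CPM in DKO/hA-I nodes 1, 2 and 3, and Oasl2 at 176, 36.8 and 156 CPM. The other DKO/hA-I nodes were instead the highest of all 6 for 8 and 16 genes, against 9.73% and 19.3% of all genes. Over all genes the median range among the DKO/hA-I nodes was 1.24-fold, and over the members it was 3.54-fold.

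Lymph node DKO replicate 2 was lowest of the 3 DKO nodes for 28 genes, where 44.8% of all genes had their lowest value. Over all 31 members, the median gene was 1.54-fold lower there than the mean of the other DKO nodes. That library held 5911835 counts, the fewest of all libraries. Across the 6 nodes the members moved together within the groups. The median correlation of a gene with the other members, after subtracting group means, was 0.97 in node (0.84 to 0.98) and 0.79 in spleen (-0.32 for Ddx58 to 0.90 for Ifit1). These are descriptions over 6 libraries that share their depth and their outlying library.

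**Figure D4:**
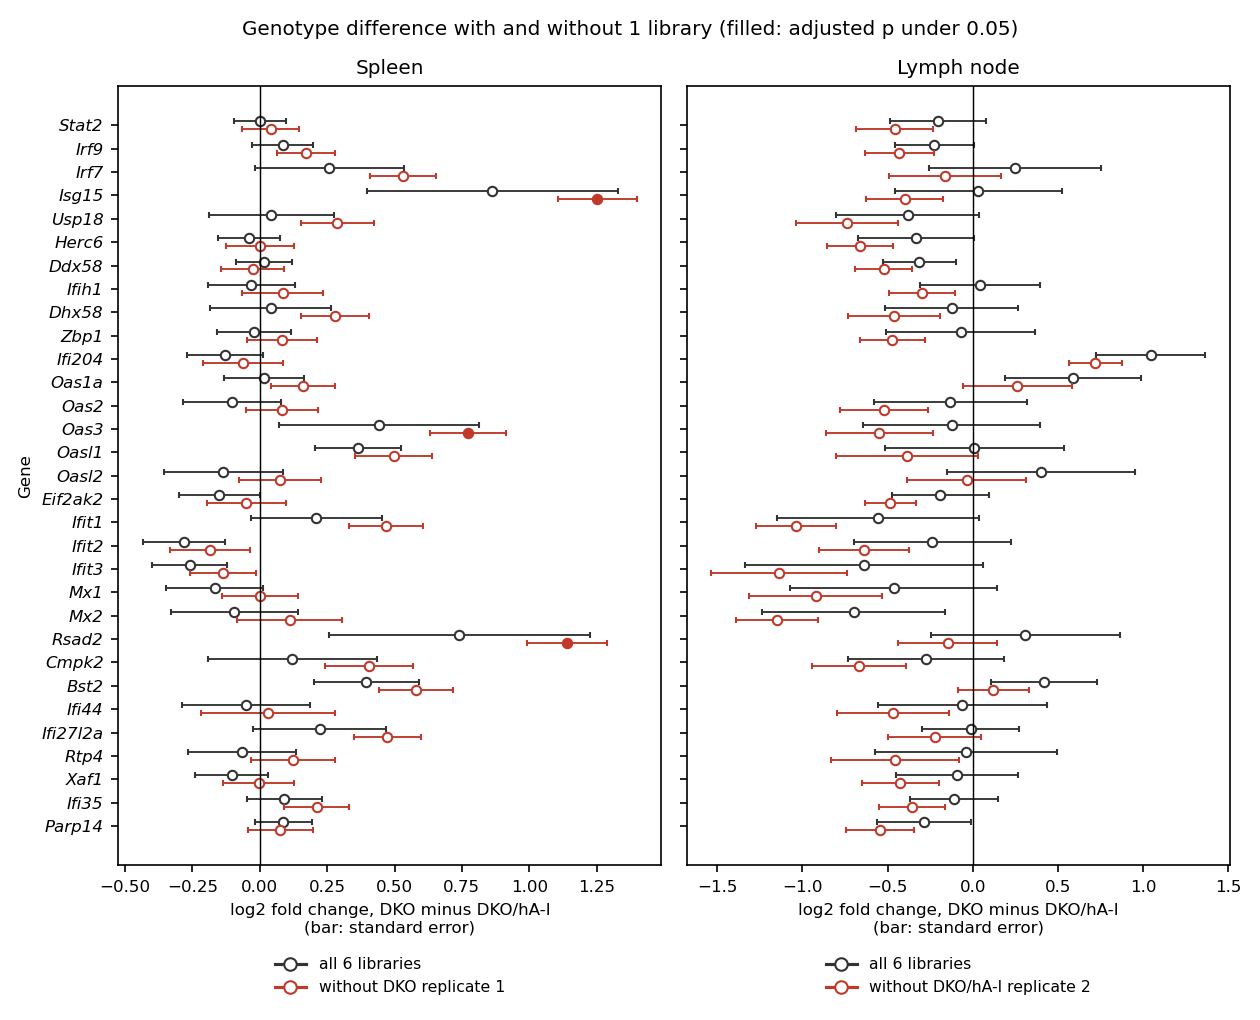
Log2 fold change of each gene, DKO minus DKO/hA-I, with standard errors, in spleen (left) and lymph node (right), from all 6 libraries (black) and without 1 library (red), filled where the adjusted p was under 0.05. Isg15, Oas3 and Rsad2 are the only filled points, in spleen without DKO replicate 1, and 28 of 31 red points lie below 0 in lymph node.

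Leaving that node out gave no call and more members below 0. Without lymph node DKO/hA-I replicate 2, 28 of 31 genes were lower in the nodes labelled DKO, with a median of -0.46, and 0 were called, against 0.808% of all 14239 genes in either direction. That node was the lowest for all 31 members, so leaving it out moves each of these differences downward by choice. Mx2 differed by -1.15 ± 0.24 (adjusted p = 0.0843), Ifit1 by -1.04 ± 0.23 (adjusted p = 0.105) and Ifit3 by -1.13 ± 0.40 (adjusted p = 0.222). Leaving out DKO replicate 1 gave a median of -0.40 and leaving out DKO replicate 3 gave -0.14. It was above 0 without DKO replicate 2 (0.06), DKO/hA-I replicate 1 (0.08) or DKO/hA-I replicate 3 (0.05).

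Several marker sums also stood apart in these nodes. Lymph node DKO/hA-I replicate 2 had an adipocyte marker sum of 2476 CPM, against 1976 and 814 CPM in the other DKO/hA-I nodes and 108 to 157 in DKO nodes, and an erythroid marker sum of 592 CPM against 44.1 to 195 in the other nodes. In that library 0 of the 10 adipocyte, 0 of the 11 erythroid and 0 of the 9 conventional dendritic cell markers were at 0. Its 9 conventional dendritic cell markers summed to 498 CPM, below the 760 and 773 of its group, and lymph node DKO replicate 2 had 410 CPM against 1153 and 1426 in the other DKO nodes. The plasmacytoid dendritic cell markers gave 824 CPM in DKO/hA-I replicate 2, the highest of the nodes, which ran from 562 CPM in DKO replicate 3. The B cell markers were highest and lowest in the same 2 nodes, at 3738 and 1996 CPM, so the plasmacytoid sum was not separate from the B cell sum. Lymph node DKO replicate 2 also had the highest sums of plasma cell (9362 CPM) and neutrophil (1490 CPM) markers among the nodes. Its T cell markers, 735 CPM, were the lowest of the nodes, and its lipid-laden macrophage markers summed to 1618 CPM against 6026 and 8438 in the other DKO nodes. Their part in the result was not tested. In the nodes the middle number of the code is the same for all DKO animals and differs among the others, so code and genotype cannot be told apart.

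The genotype difference itself was compared between the tissues. Subtracting the spleen contrast from the lymph node contrast gave 0 called members of 31, against 3.33% of all genes, and the smallest adjusted p was that of Ifi204. In edgeR 1 member had an unadjusted p under 0.05, and DESeq2 also called 0. With both libraries that stood apart left out (a choice made after seeing the data), 2 genes were called lower, against 0.581% of all 14790 genes. They were Isg15 (-1.68 ± 0.29, adjusted p = 0.0316) and Ifit1 (-1.53 ± 0.28, adjusted p = 0.0326). The members stood low in both libraries, so leaving them out moves this contrast downward for most members by choice. These p-values are therefore not a test of a tissue by genotype difference. The sign of this contrast rests on the labels of both tissues.

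The rest of the pathway gave a frame for these values. Of 10 interferon ligand genes, Ifna1, Ifna2, Ifna4, Ifna5, Ifnb1, Ifne, Il28a and Il28b had 0 counts in all 12 libraries. Only Ifng was tested, with 38, 54, 52 and 61 counts summed over nodes (DKO, DKO/hA-I) and spleens (DKO, DKO/hA-I), and it differed in no comparison. Of 15 receptor and signalling genes 0 were called by genotype in either tissue, and 6 were lower in spleen than in node, where 17.5% of all genes were. Jak1 (-0.53), the kinase bound to IFNAR2, and the receptor chains Ifnar1 (-0.48) and Ifngr2 (-0.43) were among them. Of 18 further sensors and adaptors, 1 was called by genotype in node, a share near the 6.87% of all genes. It was Ticam1, the adaptor TRIF of TLR3 and TLR4, at 37.4 ± 2.56 CPM in DKO and 25.0 ± 2.75 in DKO/hA-I nodes (0.59 ± 0.14, adjusted p = 0.0445). In the tissue comparison 5 of the 18 were lower in spleen, where 17.5% of all genes were, among them Ikbke (-0.71) and Tmem173 (STING, -0.53).

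Other induced genes, a list of 43 tested genes outside the 31, had 31 lower and 3 higher in spleen (median -0.62), against 17.5% and 17.9% of all genes, and 0 called by genotype in either tissue. Gm14446 (-1.79) and Slfn5 (-1.56) led it by edgeR adjusted p, while Slfn1 differed by -1.62. Of 19 GTPases induced mainly by interferon gamma, 15 were lower in spleen (median -0.74, again against 17.5% of all genes), among them Gbp7 (-0.74) and Gbp6 (-1.24), and 0 were called by genotype. In lymph node these lists had the same low library within the DKO/hA-I group only. DKO/hA-I replicate 2 was the lowest of its 3 nodes for 42 of the 43 and 19 of the 19 genes, against 30.4% of all genes. Over all 6 nodes it was lowest for 25 and 9 of them (15.1% of all genes), and lymph node DKO replicate 2 for 17 and 10 (27.1%). In spleen the GTPases went the other way. Spleen DKO replicate 1, lowest for 26 of the 31 members, was lowest of the 6 spleens for 0 of the 19 GTPases and highest for 12. Of all genes, 20.4% were lowest and 20.1% highest there. That library was lowest for 16 of the 43 other induced genes and for 0 of the 15 receptor and signalling genes, of which 8 were highest there.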

How the data were processed

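Per the labels' protocols, poly(A) RNA was extracted with a NucleoSpin kit and made into libraries with an Illumina kit. The submitters' processing notes name Trimmomatic, Bowtie, TopHat, Cuffdiff and the build GRCm38 (mm10). Of versions, annotation, counting program and strand, nothing is stated in the labels or headers. Per the file headers, the authors deposited raw counts per gene for each library of a tissue, and p-values and q-values of their own genotype comparison, which names no first group and was used without its sign.

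After filterByExpr (count of 10, total of 15), edgeR 4.0.16 (R 4.3.3) was the test (TMM, robust quasi-likelihood test, Benjamini-Hochberg adjustment over all genes tested, call at 0.05). Genotype was tested within each tissue over 6 libraries, tissue and the tissue by genotype difference in a single fit of 12 libraries. DESeq2 1.42.0, limma 3.58.1 voom, other scaling, filters, blocks and leaving out each library were alternatives. The steps were tested on simulated counts. Library pairs within a group differed by 9.52 to 56.5 times the Poisson expectation, so no library was a copy. Depth sets counting error only, since reads have no molecular identifiers. The members and lists were chosen with earlier results of these data known. All members are described, and of each further list up to 4 called genes by adjusted p, otherwise up to 2, were eligible to be named. Gene positions and exon lengths come from GENCODE vM21 (GRCm38), promoters from RefSeq (GRCm38.p6).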

Additional observations from a re-analysis of the deposited data

How the results depend on the processing

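Shares of all genes called in the same fit, in either direction, stand in brackets. For genotype in spleen (0 called), leaving out single libraries gave 0 to 3 members (0.00705% to 1.18%), and the animal code block gave 7 (3.68%). For genotype in lymph node (0 called), DESeq2 gave 1 (14%) and the fit of all 12 libraries 1 (15.4%), both below the share of all genes. For spleen minus lymph node in DKO (15 called, 22.8%), dropping the low count filter gave 6 (17.2%) and leaving out single libraries 3 to 13 (16.2% to 29.8%). The 3 came without spleen DKO replicate 2, below the 17.1% of all genes called there. DESeq2 gave 17 (25.2%), the 6 DKO libraries alone 17 (15.6%), and leaving out both libraries that stood apart 21 (21.7%), 2 of them higher in spleen. In DKO/hA-I (16 called, 25.7%), limma voom gave 8 (25.4%) and leaving out single libraries 10 to 28 (19.5% to 21.3%). The 6 libraries of that genotype alone gave 4 (31.8%), below the share of all genes. With both libraries that stood apart left out, it gave 29 (21.4%), and the tissue by genotype difference 2 (0.98%). Over both genotypes (26 called), 18 to 30 members were called. Same-numbered libraries deviated together no more than others did (correlations of -0.14 to 0.12 and of -0.14 to 0.21). With 3 libraries per group this cannot exclude that the number marks a pair. The replicate block gave 0 in each genotype comparison, 13 (14.8%) for the tissues in DKO and 4 (31%) in DKO/hA-I. Genes tracked over the settings were the 26 called between the tissues, and for genotype Isg15 and Rsad2 in spleen and Ifi204 in lymph node. None of these reversed direction. Other members did in the genotype comparisons. In lymph node without DKO/hA-I replicate 3, 19 of 31 kept their sign, and in spleen without DKO replicate 1, 21 of 31 did. Every count is limited by 3 libraries per group.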
